A study of Mus musculus with 12 samples.

Results

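Regulatory T cells (Treg) from the spleens of mice given intravenous immunoglobulin (IVIg, IgG pooled from human donors) were compared with Treg from mice given human serum albumin (HSA) as the control protein, in animals whose own Treg had not been depleted. The comparison used 8 of the study's 12 Affymetrix arrays, chosen by their titles: 4 named eTreg (HSA) and 4 named e_iTreg (IVIg). Values were log2 expression after robust multi-array averaging (RMA), and every one of the 23521 probe sets that carry a single gene symbol was kept, which covers 22180 genes. All animals were DEREG mice that had been sensitized to ovalbumin and challenged with it as a model of allergic airway disease. The eTreg group received ovalbumin, HSA and ovalbumin and holds endogenous Treg. The e_iTreg group received ovalbumin, IVIg and ovalbumin and is labelled as a mixture of endogenous and IVIg-induced Treg; the sources used here do not give the share of induced cells. The dose of either protein was 2 g/kg. In DEREG mice a transgene under Foxp3 control carries the diphtheria toxin receptor fused to green fluorescent protein. Diphtheria toxin (DTx) can therefore remove cells that express Foxp3. Both groups compared here carried the transgene and received no DTx by the design text. A protocol text shared by all samples instead describes depletion of endogenous Treg with DTx (40 ng/g) before IVIg or HSA. These texts conflict, and the design text was followed here. The third group, iTreg, received IVIg after DTx and enters below only through the shared estimate of the spread and a few values given side by side. Each group has 4 biological replicates; age, sex, the number of animals behind a replicate and the sort marker are not stated in the labels. Each sample started from 2 ng of total RNA, amplified in 2 rounds, and in sorted bulk samples fewer cells of a type and less RNA per cell cannot be told apart.

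Treg are CD4 T cells that restrain other immune cells. Foxp3 is their lineage-defining transcription factor, and they also carry the high-affinity IL-2 receptor chain CD25 (Il2ra), the inhibitory receptor CTLA-4, the Ikaros-family factor Helios (Ikzf2), neuropilin-1 (Nrp1) and the receptor GITR (Tnfrsf18). They act through cell contact, through cytokines such as IL-10 and TGF-beta, and in activated subsets through granzyme B. IVIg is given in autoimmune and inflammatory disease, and Fc gamma receptors, the neonatal Fc receptor (Fcgrt) and lectins of the CD209 family have been studied as the receptors through which it acts. The comparison asks which transcripts differ in the Treg of animals given IVIg when the endogenous Treg are still present.

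The labelled cell type was checked first. Foxp3 read 12.33, 12.50, 12.54 and 12.46 in eTreg replicates 1 to 4 and 12.36, 12.19, 12.08 and 12.56 in e_iTreg replicates 1 to 4. Cd3e, a chain of the T cell receptor complex, lay between 12.01 and 12.34 on all 8 arrays, and Cd4 between 10.33 and 10.55. All 28 measured Treg identity genes and all 26 measured genes of T cell receptor signalling had a mean of at least 7. Of other cells, 4 of 9 CD8 T and NK cell markers and 2 of 11 monocyte, macrophage and dendritic cell markers did. The counts were 2 of 7 for plasma cell, 2 of 4 for platelet, 0 of 7 for neutrophil and 0 of 2 for erythroid markers. Of 7 listed erythroid genes only those 2 were measured. Of the 13 measured B cell markers 7 reached that level, and their mean over the list spanned 6.14 to 7.89 across the eTreg arrays and 6.12 to 7.84 across the e_iTreg arrays. Cd8a stayed between 5.58 and 6.68 on all 8 arrays. Markers of Treg and T cells were thus bright on each array, while the B cell marker level differed between replicates of both groups.

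The arrays correlated as closely between the groups as within them. Pearson's correlation across probe sets, which are not independent replicates, was 0.984 to 0.991 for the 12 pairs of arrays within a group and 0.982 to 0.993 for the 16 pairs between groups, with a median of 0.988 for both. The array most like eTreg replicate 1 was e_iTreg replicate 2 (0.993), and the array most like eTreg replicate 3 was e_iTreg replicate 4 (0.993), so the closest neighbours of these arrays came from the other treatment. The medians of the arrays over these probe sets separated by group only narrowly, at 6.46 to 6.47 in eTreg and 6.48 to 6.67 in e_iTreg. Over all rows of the array the medians overlapped, at 6.31 to 6.35 in eTreg and 6.34 to 6.50 in e_iTreg. On the second principal component (23.0% of the variance) e_iTreg replicates 1, 2 and 3 lay above all eTreg arrays and e_iTreg replicate 4 among them. One array stood apart: e_iTreg replicate 3 had a median log2 value of 6.67, where the other 7 arrays had 6.46 to 6.54, and the lowest mean correlation with the other group, 0.984.

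No transcript passed the test between IVIg and HSA. With limma and Benjamini-Hochberg adjustment over all probe sets, 0 of 23521 probe sets (0%) had an adjusted p below 0.05, and the smallest adjusted p was 0.223. Before adjustment, 1649 probe sets (7.01%) had a p below 0.05, of which 1065 (4.53%) were higher and 584 (2.48%) lower in e_iTreg. The 4 values of one group lay entirely outside those of the other for 1010 probe sets (4.29%), 619 of them higher in e_iTreg (2.63%) and 391 lower (1.66%). In the same fit the iTreg group, which had DTx before IVIg, gave 2349 calls against eTreg (9.99%) and 2643 against e_iTreg (11.2%), 2 comparisons that each share a group with this one.

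The differences were small in size as well. The median absolute difference between the group means was 0.10 on the log2 scale, the 95th percentile was 0.31 and the 99th 0.43, and 7 probe sets differed by more than 1. The median standard error of a difference was 0.121 and the median half-width of its 95% interval 0.258, equal to 1.20-fold. For 72.2% of probe sets the difference between the group means was smaller than the pooled SD between replicates. At this spread a probe set called alone would have needed an unadjusted p of 2.13e-06, which at the median standard error is a difference of 0.90 (1.87-fold); had 100 probe sets been called together, 0.59 (1.5-fold) would have sufficed.

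The 95% intervals describe how large a difference in array signal each probe set allows. The bound used below is the larger absolute end of the interval, so with a bound of 1.5-fold every larger difference, in either direction, lies outside the interval of that probe set. The median bound was 1.3-fold and its 95th percentile 1.59-fold. The interval lay within 1.3-fold for 12050 probe sets (51.2%), within 1.5-fold for 21182 (90.1%) and within 2-fold for 23294 (99%). By gene, with the brightest probe set of each, the counts were 11403 (51.4%), 20030 (90.3%) and 21977 (99.1%) of 22180. An equivalence test against a 1.5-fold margin, made of both one-sided limma tests and adjusted over all probe sets, was passed by 22060 probe sets (93.8%) and by 94.1% of genes. These counts include 1656 probe sets with means below 4 and 7088 with means of 4 to 6. Of these, 87.1% and 89.2% lay within 1.5-fold. Whether such dim transcripts were expressed was not tested, so a bound there applies to the signal only.

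**Figure D1:**
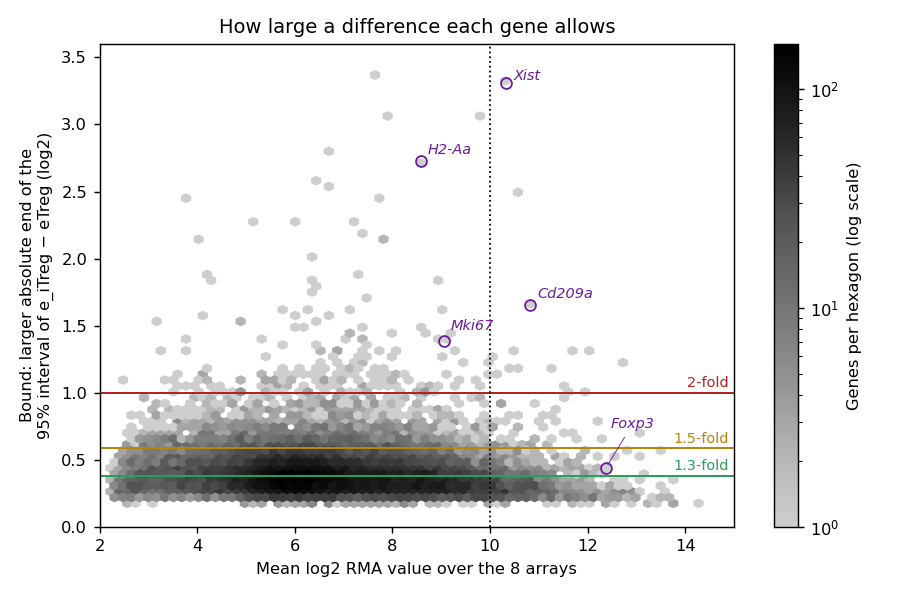
Bound of the e_iTreg minus eTreg difference (larger absolute end of the 95% interval, log2) against the mean log2 RMA value over the 8 arrays, for 22180 genes with 1 probe set each; shading counts genes per hexagon, coloured lines mark 1.3-, 1.5- and 2-fold and the dotted line marks log2 10, above which a gene is called bright. Of the genes, 20030 lie below the 1.5-fold line, and the circled genes Xist, H2-Aa, Cd209a and Mki67 lie above the 2-fold line.

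By the median bound, bright genes were bounded most tightly, but their share within 2-fold was no higher than the 99.1% over all genes. A gene was called bright with a mean log2 of at least 10 over the 8 arrays, which 1124 genes (5.07%) reached. Among them the median bound was 1.24-fold, 833 (74.1%) lay within 1.3-fold, 1059 (94.2%) within 1.5-fold and 1110 (98.8%) within 2-fold, and 1080 (96.1%) passed the adjusted equivalence test. The median pooled SD between replicates was 0.190 for probe sets with a mean below 4 and 0.0941 for those at 12 or above. The bright gene with the smallest bound was Eef1a1, the elongation factor that delivers aminoacyl-tRNA to the ribosome. Eef1a1 read 13.68, 13.67, 13.70 and 13.69 in eTreg and 13.70, 13.67, 13.72 and 13.67 in e_iTreg, a difference of 0.0031 (95% interval -0.16 to 0.17) and a bound of 1.12-fold. The 8 values lay within a range far smaller than the interval itself, since the moderated error borrows from all probe sets.

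The next tightest bounds were 1.13-fold and 1.14-fold. Aup1 (lipid droplets and protein degradation in the endoplasmic reticulum) was bounded at 1.13-fold and COX1, the mitochondrially encoded oxidase subunit, at 1.13-fold. The ribosomal proteins Rps12 and Rps6 had bounds of 1.14-fold and 1.14-fold, with differences of -0.01 and -0.02. Rac2, a GTPase of haematopoietic cells, read 13.28, 13.22, 13.15 and 13.30 in eTreg and 13.21, 13.21, 13.34 and 13.23 in e_iTreg, with overlapping groups and a bound of 1.14-fold. The other genes among the 15 tightest were Cd5, Ptprc, the zinc finger factor Zfp148, the RNA-binding regulator Zc3h12d, the ribosome biogenesis factor Nsa2, the RNA-binding protein Ewsr1, the glycolipid transfer protein Gltp, the splicing factor Srrm2 and the deadenylase subunit Cnot6l, each bounded at 1.14-fold.

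The Treg identity genes differed by little between IVIg and HSA. None of the 28 measured members passed the limma test, and 0 had an unadjusted p below 0.05 in either direction. The background was 4.53% higher and 2.48% lower over all probe sets, and 1.69% in either direction over bright genes. Of the members 15 lay above 0 and 13 below. The median difference was 0.00379, beside 0.03 over all genes and -0.02 over bright genes. The intervals of 25 members lay within 1.5-fold, including all 14 bright ones, and 27 passed the adjusted equivalence test. For Foxp3 the difference was -0.16 (95% interval -0.44 to 0.12), or 0.74-fold to 1.09-fold; the 4 e_iTreg values spanned those of eTreg, and without e_iTreg replicate 3 the difference of Foxp3 was -0.09. With the replicate number as a block 1 member had an unadjusted p below 0.05, and was lower. Under median centring of each array 24 of the 28 lay below 0, with the median of all probe sets at -0.03 in that setting.

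Il2ra read 11.72, 11.98, 12.02 and 12.05 in eTreg and 11.70, 11.60, 12.02 and 12.06 in e_iTreg, with e_iTreg replicate 2 lowest and e_iTreg replicate 4 highest, and a bound of 1.31-fold. Ikzf2 read 10.24, 10.39, 10.24 and 10.09 in eTreg and 10.27, 10.21, 10.43 and 10.24 in e_iTreg, overlapping throughout, and was bounded at 1.20-fold. Nrp1 (10.61, 10.54, 10.71 and 10.46 in eTreg and 10.70, 10.58, 10.59 and 10.67 in e_iTreg) had a bound of 1.25-fold. Helios and neuropilin-1 are often used to mark Treg of thymic origin, and for neither did the groups separate. Tnfrsf18 was highest in eTreg replicate 3 (11.40) and lowest in e_iTreg replicate 1 (10.94), with a bound of 1.23-fold. Tnfrsf9, the costimulatory receptor 4-1BB, and Izumo1r, the folate receptor 4 of Treg, were the tightest of the list, at 1.15-fold and 1.18-fold. The smallest p of the list belonged to Gata1, at -0.26 (-0.63 to 0.10, limma adjusted p = 0.732).

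**Figure D2:**
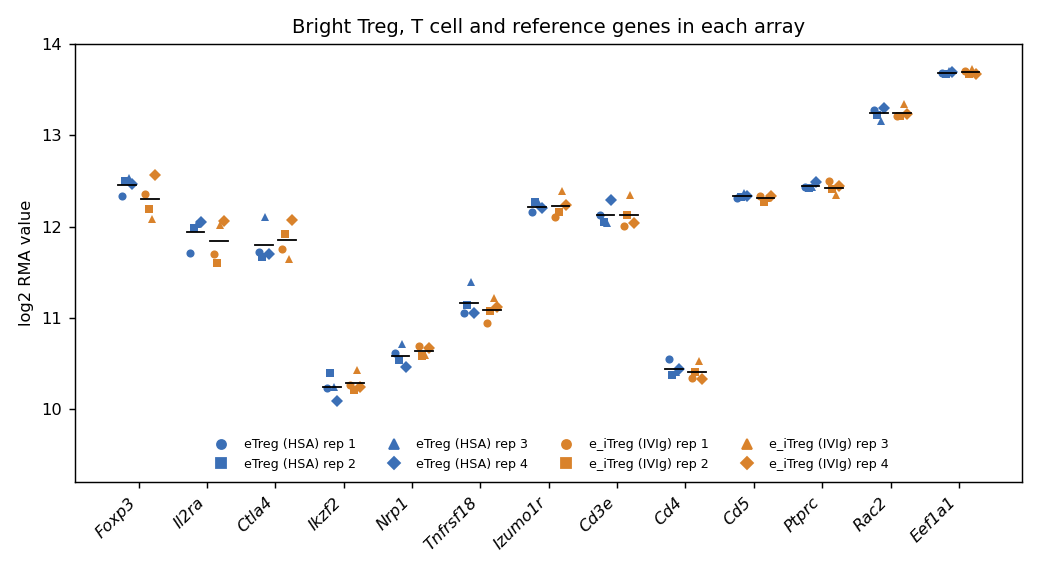
Log2 RMA values of 13 bright genes in each of the 4 eTreg (HSA, blue) and 4 e_iTreg (IVIg, orange) arrays; symbols mark the replicate number, which does not pair arrays across groups, and black bars are group means. The values of the groups overlap for each gene shown, and those of Eef1a1 range from 13.67 to 13.72.

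The genes of the T cell receptor complex and its signalling were bounded in the same way. Of 26 measured members 0 passed the test and 0 had an unadjusted p below 0.05 (1 lower with the replicate block, and 3 lower without eTreg replicate 3), 11 lay above 0 and 15 below, and the median difference was -0.02. Their list mean was 10.71 to 10.78 in eTreg and 10.66 to 10.73 in e_iTreg, and 22 lay within 1.5-fold. Cd5, an inhibitory receptor whose level follows the strength of T cell receptor signals, read 12.31, 12.33, 12.37 and 12.33 in eTreg and 12.34, 12.27, 12.32 and 12.33 in e_iTreg, with a bound of 1.14-fold. Ptprc, the phosphatase CD45, had the same bound, 1.14-fold, and Cd3e and Cd4 were bounded at 1.16-fold and 1.17-fold. The lowest p values of the list were those of Vav1, a signalling protein downstream of the T cell receptor, at -0.31 (-0.63 to 0.02) and of Csk, the kinase that restrains Lck, at -0.23 (-0.47 to 0.02); the limma adjusted p was 0.704 and 0.705. Both intervals ended just above 0. Under median centring 21 of the 26 lay below 0.

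Genes commonly used as references gave the same picture. For the 3 lists given here, the background of an unadjusted p below 0.05 was 4.53% higher and 2.48% lower over all probe sets. Of all genes 90.3% lay within 1.5-fold. All 24 measured reference and cytoskeletal genes lay within 1.5-fold, 10 above 0 and 14 below, and 1 (Ptma, prothymosin alpha, at -0.23; limma adjusted p = 0.704) had an unadjusted p below 0.05. Ptma was lowest in e_iTreg replicate 3, and without that array, or without eTreg replicate 3, 0 members had such a p. Gapdh read 12.13, 12.0, 11.80 and 11.84 in eTreg and 12.0, 12.14, 11.82 and 11.90 in e_iTreg, overlapping, with a bound of 1.18-fold, and Actb had a bound of 1.32-fold. Of the 66 cytosolic ribosomal protein genes 63 lay within 1.5-fold, including all 31 bright ones, and 1 had an unadjusted p below 0.05, Rps7 at -0.40 (-0.67 to -0.14). Rps7 read 8.55, 8.71, 8.69 and 8.57 in eTreg and 8.49, 8.12, 8.01 and 8.28 in e_iTreg, where each e_iTreg value was below each eTreg value, but its limma adjusted p was 0.704. Of all probe sets 1.66% were likewise lower without overlap. Of the 77 nuclear genes of the respiratory chain and ATP synthase 75 lay within 1.5-fold, with Atp5b and Uqcrc2 both bounded at 1.16-fold. Of these 77, 1 had an unadjusted p below 0.05 and was higher, and 0 had such a p without e_iTreg replicate 3. In the lower direction the lowest p was at Ndufs1 (-0.31, interval -0.64 to 0.03). Median centring put 22 of 24 reference genes, 52 of 66 ribosomal genes and 65 of 77 respiratory chain genes below 0, where without it the counts were 14, 40 and 53.

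The suppressive molecules of Treg were bounded less evenly, because some of them varied between replicates. Of 17 measured members 0 passed the test, 1 had an unadjusted p below 0.05 and was higher, 13 lay above 0 and 4 below, and 11 were within 1.5-fold. Over all probe sets 4.53% were higher with such a p. Of all 22180 genes 13026 lay above 0, and 90.3% were within 1.5-fold. The bright ones were tight. Ctla4 read 11.72, 11.67, 12.10 and 11.69 in eTreg and 11.75, 11.92, 11.64 and 12.08 in e_iTreg, a bound of 1.24-fold; eTreg replicate 3 and e_iTreg replicate 4 were the 2 highest arrays. Nt5e, the adenosine-forming ectoenzyme CD73, and Tgfb1, the cytokine TGF-beta 1, had bounds of 1.26-fold and 1.28-fold, and Tgfb1 was at 0.13 (-0.09 to 0.36). The member with the unadjusted p below 0.05 was Il12a, the subunit shared by IL-12 and IL-35, at 0.37 (0.08 to 0.66; limma adjusted p = 0.704), a dim probe set with values of 5.59, 5.68, 5.75 and 5.59 in eTreg and 6.09, 5.78, 6.40 and 5.80 in e_iTreg, where the groups did not overlap. Of all probe sets 2.63% were likewise higher in e_iTreg without overlap. Without e_iTreg replicate 3, its highest array, the difference of Il12a was 0.24 and the list had 0 members with an unadjusted p below 0.05. The balance of the list was 10 above and 7 below without eTreg replicate 4, and 7 above and 10 below in the fit leaving out the 3 arrays that had the lowest B cell markers.

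Il10 and Gzmb could not be bounded tightly. Gzmb, granzyme B, read 9.55, 8.23, 7.41 and 6.61 in eTreg and 7.92, 9.52, 7.54 and 7.33 in e_iTreg. It was high in eTreg replicate 1 and e_iTreg replicate 2 and lowest in eTreg replicate 4, and the groups overlapped. Its difference was 0.13 (95% interval -1.01 to 1.27), which leaves any change between 0.50-fold and 2.41-fold within the interval. Il10 read 8.62, 7.28, 7.87 and 6.63 in eTreg and 7.87, 8.63, 7.39 and 7.86 in e_iTreg, again with eTreg replicate 1 and e_iTreg replicate 2 highest, and a difference of 0.34 (-0.51 to 1.19). The cell cycle genes described below were highest in the same 2 arrays, and so were the B cell markers (list means 7.89 and 7.84) and the CD8 T and NK cell markers (7.51 and 7.49, against 6.94 to 7.34 in the other 6); their part in these values was not tested. Without eTreg replicate 4 the difference of Il10 was 0.02.

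The list of effector Treg and helper cell regulators had 22 members above 0 and 5 below of 27 measured, with a median difference of 0.12 beside 0.03 over all genes, but 0 passed the test and 0 had an unadjusted p below 0.05 (1 higher with the replicate number as a block, and 3 higher without eTreg replicate 1). The lean depended on single arrays: without eTreg replicate 4 the counts were 17 and 10 and the median 0.01, without e_iTreg replicate 2 the median was 0.06, and in the fit leaving out the 3 arrays that had the lowest B cell markers 0.03. Of its members 14 were within 1.5-fold. Stat6 and Stat3, transcription factors downstream of cytokine receptors, were bounded at 1.25-fold and 1.27-fold. Tbx21, the T helper 1 factor T-bet, read 8.01, 7.49, 7.58 and 7.40 in eTreg and 7.79, 7.72, 7.85 and 7.65 in e_iTreg, a difference of 0.13 (-0.18 to 0.45) and a bound of 1.36-fold. Maf, a factor that drives Il10 in T cells, had the lowest p, with a difference of 0.42 (-0.07 to 0.90; limma adjusted p = 0.712) and values of 9.16, 8.32, 7.98 and 8.04 in eTreg and 8.84, 9.15, 8.75 and 8.41 in e_iTreg.

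Gzmb, Tbx21 and Nt5e differed between e_iTreg and the iTreg group, and for Foxp3 no difference passed the test. Gzmb averaged 7.95 ± 1.26 in eTreg, 8.08 ± 0.99 in e_iTreg and 12.13 ± 0.43 in iTreg (SD, n = 4 each), and limma gave iTreg minus e_iTreg as 4.05 ± 0.53 (SE) with an adjusted p of 0.000835. Tbx21 averaged 7.62 ± 0.27, 7.75 ± 0.09 and 9.13 ± 0.28, and iTreg minus e_iTreg was 1.38 ± 0.15 (limma adjusted p = 0.000383). In both, the interval for IVIg without depletion ended below the value of iTreg minus eTreg, which was 4.18 for Gzmb and 1.51 for Tbx21. Nt5e went the other way, with iTreg below e_iTreg by 0.61 ± 0.12 (limma adjusted p = 0.00564) and e_iTreg minus eTreg at 0.07. For Foxp3 iTreg minus e_iTreg was -0.13 ± 0.13 with a limma adjusted p of 0.567. These contrasts share the e_iTreg arrays with the comparison described here.

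**Figure D3:**
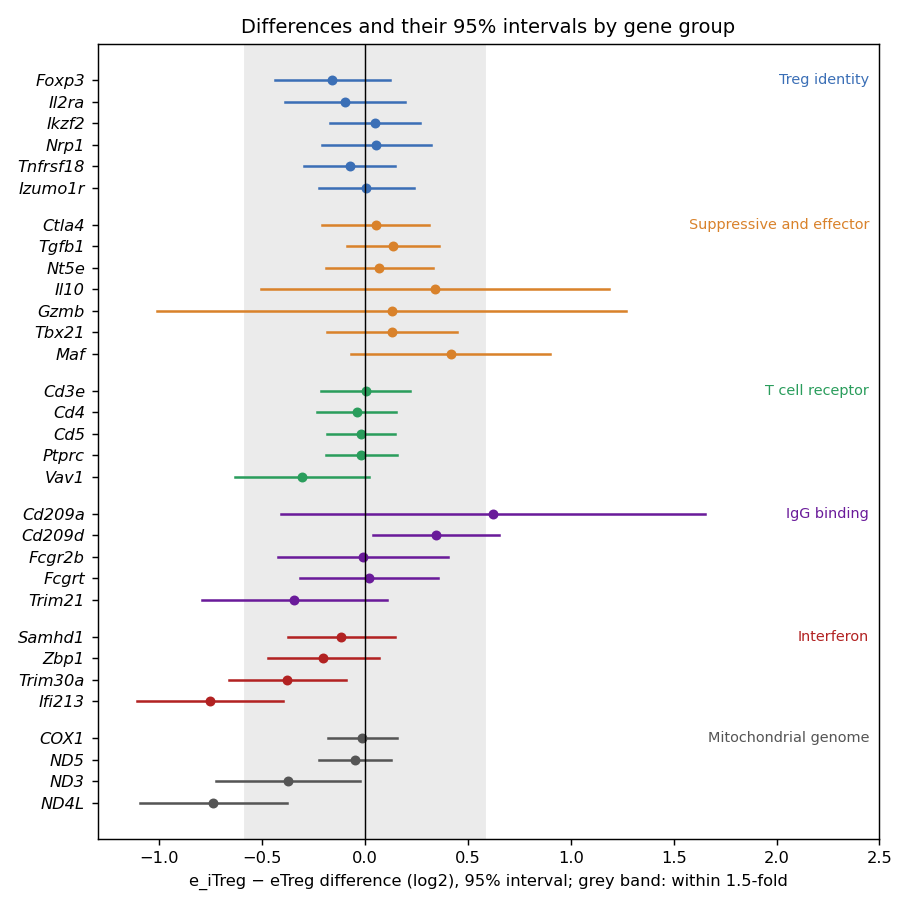
Difference e_iTreg minus eTreg (points, log2) with its moderated 95% interval (lines) for 31 named genes in 6 groups; the grey band marks differences within 1.5-fold. The intervals of the Treg identity and T cell receptor genes shown lie inside the band except that of Vav1, those of Il10, Gzmb, Cd209a, Ifi213 and ND4L extend past 2-fold, and 0 of these genes passed the adjusted test.

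Receptors for IgG were mostly dim in these cells. Of 25 measured IgG receptors and IgG-binding lectins 6 had a mean of at least 7 and 1 was bright. None passed the test, 1 had an unadjusted p below 0.05 and was higher, 17 lay above 0 and 8 below, and 11 were within 1.5-fold. Over all probe sets 4.53% were higher with such a p. Of all 22180 genes 13026 lay above 0, and 90.3% were within 1.5-fold. Fcgr2b, the inhibitory Fc gamma receptor, read 7.07, 7.15, 6.57 and 6.69 in eTreg and 7.01, 7.24, 6.57 and 6.61 in e_iTreg, a difference of -0.01 (-0.42 to 0.40) and a bound of 1.34-fold, which passed 1.5-fold when Y-linked minus Xist level was a covariate (1.52-fold) and without the 3 arrays in which B cell markers were lowest (1.60-fold). In both groups its values were lower in replicates 3 and 4 than in replicates 1 and 2. Fcgrt, which salvages IgG from degradation, was bounded at 1.28-fold. Trim21, the cytosolic IgG receptor, read 8.67, 8.66, 8.16 and 9.07 in eTreg and 8.40, 8.56, 7.70 and 8.51 in e_iTreg, a difference of -0.35 (-0.79 to 0.10; limma adjusted p = 0.727), with e_iTreg replicate 3 lowest; without that array the difference of Trim21 was -0.15, and without eTreg replicate 4 it was -0.20. The member with the unadjusted p below 0.05 was the lectin Cd209d, at 0.34 (0.04 to 0.65; limma adjusted p = 0.704), on a dim probe set whose highest value was 5.60. The list had 0 such members without e_iTreg replicate 3, eTreg replicate 2 or e_iTreg replicate 1, and after quantile normalization, and its balance was 12 above and 13 below without eTreg replicate 4, after median centring or with other-cell markers as a covariate.

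The bright member was Cd209a, the mouse lectin named after human DC-SIGN and best known from dendritic cells. Cd209a read 11.21, 10.90, 11.10 and 8.83 in eTreg and 10.93, 11.05, 11.36 and 11.19 in e_iTreg. A single array, eTreg replicate 4, was low, and the other 7 lay between 10.90 and 11.36. The difference of 0.62 and its interval of -0.41 to 1.65 therefore rest on that array: without eTreg replicate 4 the difference was 0.06 and the bound 1.79-fold, where it was 3.15-fold with it. Of the listed markers of dendritic cells, monocytes and macrophages, 2 of 11 had a mean of at least 7, and list means were 6.56 to 7.0 in eTreg and 6.49 to 7.07 in e_iTreg. The part of other cells in the Cd209a values was not tested.

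Early response genes are induced within minutes of stimulation and can also respond to handling of the cells. Of 28 members 23 lay above 0 and 5 below, with a median difference of 0.10. Below 0 lay 41.1% of all probe sets, but 60.3% of those at means of 10 to 12. At that level the median difference was -0.03, and 19 of the 28 members were bright. Without eTreg replicate 4, in which the list mean was lowest (10.39, against 10.67 to 10.90 in the other 7 arrays), 13 lay above 0 and 15 below, with a median of -0.0027, and without e_iTreg replicate 1 the median was 0.03. None passed the test and 0 had an unadjusted p below 0.05 (3, each higher, without eTreg replicate 3); 23 were within 1.5-fold. Btg2 and Junb were bounded at 1.22-fold each. The homing receptors and integrins were split, 15 above 0 and 11 below, and 15 of 26 were within 1.5-fold, with S1pr1, the receptor that lets lymphocytes leave the spleen and nodes, at 1.18-fold and the integrin Itgb7 at 1.17-fold. Of the 19 genes of the TGF-beta pathway 18 were within 1.5-fold, 8 lay above 0 and 11 below. The signal transducer Smad4 was bounded at 1.22-fold. Smurf1, a ubiquitin ligase that degrades receptor Smads, read 8.93, 9.07, 9.16 and 9.0 in eTreg and 8.65, 8.73, 8.60 and 8.91 in e_iTreg, with the e_iTreg values below those of eTreg, a difference of -0.32 (-0.55 to -0.09) and a limma adjusted p of 0.704.

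The genes with the smallest p values were not bright. Among probe sets with a mean of at least 7, the 8 smallest p values in the higher direction belonged to Olfr914, Olfr955, Cldn11, Ssxb8, Dnaaf3, Coro6, Phlda3 and F8a, and each had a limma adjusted p of 0.704. Olfr914, an olfactory receptor gene, read 7.09, 6.81, 7.08 and 6.88 in eTreg and 7.51, 7.32, 7.50 and 7.42 in e_iTreg, and each e_iTreg value was above each eTreg value. Its difference was 0.47 (0.26 to 0.68). Olfr955, of the same family, was at 0.66 (0.36 to 0.96) and Cldn11, a tight junction protein, at 0.36 (0.16 to 0.55). Ssxb8 had the widest interval of the 8, 0.30 to 1.13, with e_iTreg replicate 3 highest at 8.10; without that array its difference was 0.54 in place of 0.72. Dnaaf3, Coro6, Phlda3, a p53 target, and F8a differed by 0.38, 0.42, 0.41 and 0.32. The bound of Cldn11 left 1.5-fold without eTreg replicate 4 (1.53-fold) or e_iTreg replicate 2 (1.52-fold), and that of F8a without eTreg replicate 4 or e_iTreg replicate 4 (1.51-fold each).

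In the lower direction the 8 were Ifi213, ND4L, Zfp157, Tmem87b, Cd46, Snapin, Npat and Ddhd2, again with a limma adjusted p of 0.704 each. Ifi213, an interferon-inducible member of the Ifi200 family, read 7.59, 7.58, 7.63 and 7.97 in eTreg and 6.79, 7.22, 6.93 and 6.80 in e_iTreg. The groups did not overlap, and eTreg replicate 4 was highest. The difference was -0.75 (-1.11 to -0.40), and it ranged from -0.85 to -0.66 over the fits that left out 1 array. ND4L, a mitochondrially encoded subunit of complex I, read 9.72, 9.58, 9.68 and 10.06 in eTreg and 8.61, 9.30, 8.83 and 9.36 in e_iTreg, a difference of -0.74 (-1.10 to -0.38) and likewise no overlap. Zfp157, a zinc finger protein, was at -0.60, Cd46, a complement regulator, at -0.63, Ddhd2, a lipase, at -0.60, Tmem87b at -0.43, Npat, a regulator of histone genes, at -0.42 and Snapin, of the vesicle fusion machinery, at -0.38. The bound of Snapin lay at 1.5-fold and passed 1.5-fold in several alternatives, without eTreg replicate 2 among them (1.53-fold).

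**Figure D4:**
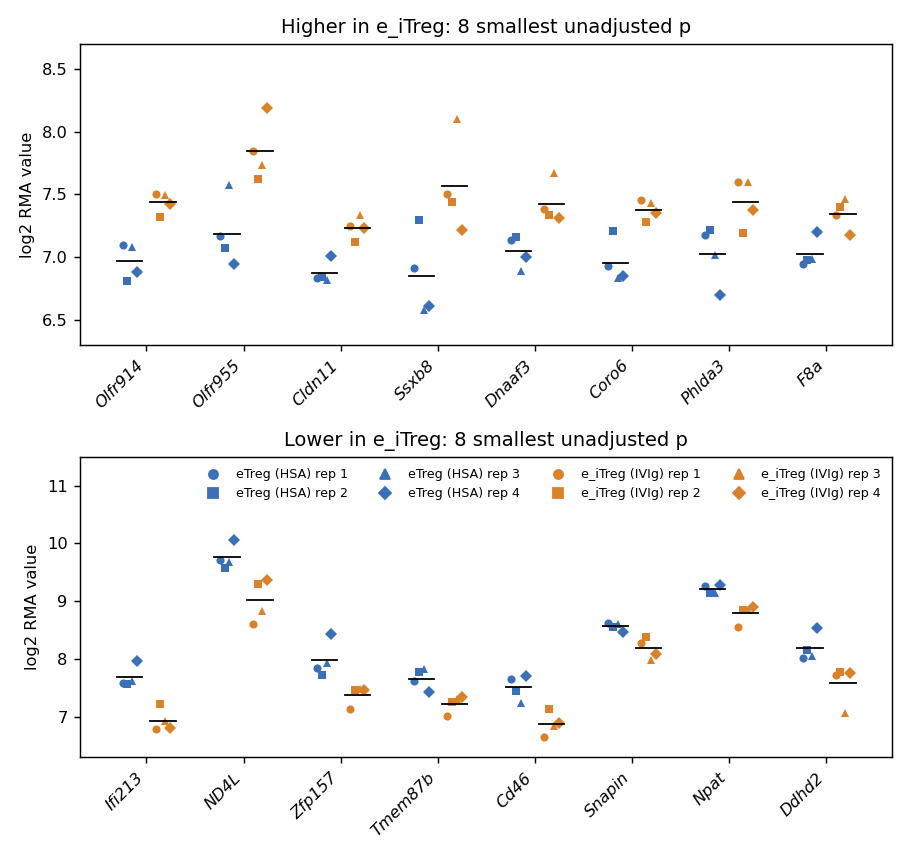
Log2 RMA values in each of the 4 eTreg (HSA, blue) and 4 e_iTreg (IVIg, orange) arrays for the 8 genes with the smallest unadjusted p in each direction among probe sets with a mean of at least 7; black bars are group means. The groups separate for Olfr914, Olfr955, Ifi213 and ND4L among others, but the limma adjusted p is 0.704 for each gene, and the genes were selected for this difference.

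Most genes of the type I interferon response lay below 0. Of 33 measured members 5 had an unadjusted p below 0.05 and were lower in e_iTreg, where the background in that direction is 2.48%; 0 were higher, 0 passed the adjusted test, 28 lay below 0 and 5 above, and the median difference was -0.11 beside 0.03 over all genes. Among the 4555 probe sets at means of 8 to 10, which is where the list mean lay, the median difference was -0.06. Of them 69.8% lay below 0 and 4.96% had an unadjusted p below 0.05 and were lower. Members also lay at other levels, with 27 of 33 at a mean of at least 7 and 3 bright. At means of 6 to 8, 36.5% of probe sets lay below 0 and 2.62% were lower with such a p. At means of 10 to 12 these shares were 60.3% and 1.53%. The mean over the list was 8.25, 8.26, 8.15 and 8.34 in eTreg and 8.12, 8.15, 8.14 and 8.09 in e_iTreg, so the highest e_iTreg array (8.154) lay just above the lowest eTreg array (8.151). Besides Ifi213, Trim30a, a regulator of innate signalling, was at -0.38 (-0.66 to -0.09; limma adjusted p = 0.704). The bright members Samhd1, a dNTP hydrolase, and Zbp1, a nucleic acid sensor, were bounded at 1.3-fold and 1.39-fold, with differences of -0.11 and -0.20, and 25 of 33 were within 1.5-fold. The count of 5 depended on single arrays: without eTreg replicate 4 it was 1, and without eTreg replicate 1, e_iTreg replicate 2 or e_iTreg replicate 4 it was 3. With the Y-linked minus Xist level of each array as a covariate it was 2, and 15 members lay above 0 and 18 below.

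Genes of resting or naive T cells leaned the same way, with 12 of 15 below 0 and 3 above, a median difference of -0.14, and 3 with an unadjusted p below 0.05, each lower (background 2.48%, or 4.96% at means of 8 to 10); 0 passed the adjusted test. The list mean lay between 9.15 and 9.53, but members lay at other levels too, with 8 of 15 bright and 12 at 7 or above. Of all probe sets 69.8% lay below 0 at means of 8 to 10, 60.3% at 10 to 12 and 36.5% at 6 to 8. At 10 to 12 and at 6 to 8, 1.53% and 2.62% had an unadjusted p below 0.05 and were lower. Without e_iTreg replicate 2 the median of the list was -0.06. Igfbp4, a binding protein for insulin-like growth factors found in naive T cells, read 8.66, 8.80, 8.61 and 8.78 in eTreg and 8.20, 8.44, 8.30 and 8.48 in e_iTreg, without overlap, a difference of -0.36 (-0.58 to -0.14) and a limma adjusted p of 0.704. The bound of Igfbp4, 1.49-fold, left 1.5-fold without any of 4 arrays (eTreg replicates 1 and 3 and e_iTreg replicates 2 and 4), where it reached 1.54-fold to 1.56-fold. Ccr9, a chemokine receptor of gut homing, was at -0.34 (-0.61 to -0.07; limma adjusted p = 0.704). Il7r, the IL-7 receptor, was bright and bounded at 1.26-fold. Of the 10 mitochondrially encoded genes 9 lay below 0 and 1 above, 2 had an unadjusted p below 0.05 (ND4L and ND3, both lower, ND3 by -0.37 with an interval of -0.72 to -0.02), and the list mean was 11.46 to 11.61 in eTreg and 11.31 to 11.47 in e_iTreg. Within that genome the bright COX1 and ND5 were bounded at 1.13-fold and 1.17-fold. None of these lists holds a member that passed the adjusted test.

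The balance of higher over lower values in e_iTreg came with 1 array and with the scaling. Among the 1649 probe sets with an unadjusted p below 0.05, 64.6% were higher in e_iTreg. The share was 53.7% after quantile normalization (716 higher and 618 lower) and 24.0% after median centring (434 and 1378). Without e_iTreg replicate 3, the array with the highest median, it was 49.9% (483 and 485), and without it after quantile normalization 47.8% (437 and 478). The median difference over all probe sets was 0.03 as deposited, 0.02 after quantile normalization, -0.03 after median centring and 0.01 without that array. The lean also changed with level, since 13.7% of the probe sets with a low p were lower in e_iTreg at means of 4 to 6 and 86.9% at means of 8 to 10. Among bright genes 4 had an unadjusted p below 0.05 and were higher and 15 were lower.

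The spread between replicates was small for most transcripts. The median SD was 0.144 in eTreg and 0.164 in e_iTreg, the SD was larger in e_iTreg for 56.9% of probe sets, and the median for e_iTreg without replicate 3 was 0.130. The median pooled SD was 0.165 and the 95th percentile 0.341. The pooled SD was above 0.5 for 323 probe sets (1.37%). The named genes with the largest spread were of 3 kinds: major histocompatibility complex (MHC) class II genes, cell cycle genes and genes of the sex chromosomes.

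MHC class II molecules present peptides to CD4 T cells and are made by B cells and other antigen-presenting cells. H2-Aa, the alpha chain of I-A, read 10.20, 9.75, 6.59 and 5.97 in eTreg and 9.64, 10.15, 9.56 and 6.74 in e_iTreg. It was low in eTreg replicates 3 and 4 and e_iTreg replicate 4, and high in the other 5 arrays. H2-Ab1, its beta chain, read 11.43, 11.25, 7.58 and 6.89 in eTreg and 11.28, 11.44, 10.87 and 7.32 in e_iTreg, H2-Eb1 10.27, 9.88, 7.41 and 7.57 in eTreg and 9.96, 10.17, 9.50 and 7.34 in e_iTreg and H2-DMb2, a subunit of the peptide exchanger H2-DM, 9.31, 8.96, 5.62 and 5.24 in eTreg and 9.39, 9.56, 9.0 and 6.15 in e_iTreg. The same 3 arrays were low for each. Their differences were 0.90, 0.93, 0.47 and 1.24 with bounds of 6.62-fold, 8.24-fold, 3.59-fold and 8.46-fold. The B cell marker mean was 6.14, 6.23 and 6.12 in these 3 arrays and 7.28 to 7.89 in the other 5. Pax5, the B lineage factor, read 7.47, 7.38, 5.78 and 5.67 in eTreg and 7.43, 7.57, 7.02 and 6.21 in e_iTreg and was low in the same 3; the part of other cells in these values was not tested. In the fit without the 3 arrays, which were chosen for their low markers, the differences of H2-Aa, H2-Ab1, H2-Eb1 and H2-DMb2 were -0.19, -0.15, -0.19 and 0.18, so 3 of the 4 turned sign, and all 13 B cell markers lay below 0 where 11 lay above 0 with every array. The bounds there were 1.69-fold for H2-Aa, 1.45-fold for H2-Ab1, 1.64-fold for H2-Eb1 and 1.58-fold for H2-DMb2.

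Cell cycle genes also varied widely between replicates. Of 40 measured members 0 passed the test and 0 had an unadjusted p below 0.05, 30 lay above 0 and 10 below, and the median difference was 0.13. That balance turned without single arrays, to 12 above and 28 below without eTreg replicate 4 and to 8 above and 32 below without e_iTreg replicate 2 (medians -0.07 and -0.11), and with the mean of B cell, plasma cell and myeloid markers as a covariate it was 23 and 17 (median 0.02). The median pooled SD was 0.582 beside 0.164 over all genes, so 11 of 40 were within 1.5-fold and 26 within 2-fold. The list mean was 8.72, 7.89, 7.71 and 7.37 in eTreg and 8.30, 8.77, 7.65 and 7.40 in e_iTreg. eTreg replicate 1 and e_iTreg replicate 2 were highest and replicate 4 of either group was lowest, and the 4 highest arrays were also the 4 highest for the B cell markers (7.89 in eTreg replicate 1, 7.84 in e_iTreg replicate 2, 7.70 in eTreg replicate 2 and 7.53 in e_iTreg replicate 1). Mki67, which encodes the proliferation antigen Ki-67, read 10.48, 8.88, 8.75 and 7.68 in eTreg and 9.88, 10.45, 8.50 and 7.80 in e_iTreg, a difference of 0.21 (-0.97 to 1.39), which was -0.22 without eTreg replicate 4 and -0.22 without e_iTreg replicate 2. Ccna2, cyclin A2, and Ube2c, a ubiquitin-conjugating enzyme of mitotic exit, had intervals of -0.99 to 1.45 and -0.92 to 1.43, and Prr11 one of -0.91 to 1.62. The mitotic kinase Cdk1 read 8.63, 7.15, 6.70 and 6.25 in eTreg and 7.78, 8.59, 6.49 and 5.96 in e_iTreg and cyclin B2 (Ccnb2) 9.17, 7.47, 7.62 and 7.05 in eTreg and 8.20, 9.26, 7.21 and 7.0 in e_iTreg, again highest in eTreg replicate 1 and e_iTreg replicate 2. The smallest bounds among the 3 bright members were those of Pcna, the sliding clamp of DNA replication and repair, at 1.22-fold and the G1 cyclin Ccnd3 at 1.19-fold.

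The promoters of members of both gene sets are shown because their members were high or low in the same arrays. Each is the RefSeq sequence from 250 bases before to 50 after the start of the gene, on its own strand in build GRCm38.p6, with capitals marking the CCAAT box on either strand (CCAAT or ATTGG), to which the factor NF-Y binds and which forms the Y box of class II promoters, and the letters TTTGAA on either strand (TTTGAA or TTCAAA), the core of the cell cycle homology region of genes used late in the cycle. No match overlapped another in these 4 sequences.
H2-Aa (chr17:34287774-34288073, minus strand): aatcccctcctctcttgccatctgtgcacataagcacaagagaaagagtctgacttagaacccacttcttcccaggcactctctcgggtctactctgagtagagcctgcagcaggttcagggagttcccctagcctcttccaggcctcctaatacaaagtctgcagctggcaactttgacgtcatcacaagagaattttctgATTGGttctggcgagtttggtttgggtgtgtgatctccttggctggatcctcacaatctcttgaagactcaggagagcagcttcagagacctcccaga
H2-Eb1 (chr17:34305617-34305916, plus strand): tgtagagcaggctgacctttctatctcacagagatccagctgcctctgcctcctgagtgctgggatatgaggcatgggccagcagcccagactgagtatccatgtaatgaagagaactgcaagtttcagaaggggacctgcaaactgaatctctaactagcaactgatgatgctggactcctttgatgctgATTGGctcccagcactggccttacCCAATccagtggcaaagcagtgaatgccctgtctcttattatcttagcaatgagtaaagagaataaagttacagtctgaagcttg
Ccnb2 (chr9:70421505-70421804, minus strand): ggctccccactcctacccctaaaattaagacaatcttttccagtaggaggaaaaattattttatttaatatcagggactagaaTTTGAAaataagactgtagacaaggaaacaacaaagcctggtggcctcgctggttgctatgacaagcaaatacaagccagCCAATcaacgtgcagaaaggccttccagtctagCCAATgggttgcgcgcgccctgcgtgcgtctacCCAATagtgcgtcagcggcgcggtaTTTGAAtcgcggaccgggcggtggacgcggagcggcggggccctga
Cdk1 (chr10:69352863-69353162, minus strand): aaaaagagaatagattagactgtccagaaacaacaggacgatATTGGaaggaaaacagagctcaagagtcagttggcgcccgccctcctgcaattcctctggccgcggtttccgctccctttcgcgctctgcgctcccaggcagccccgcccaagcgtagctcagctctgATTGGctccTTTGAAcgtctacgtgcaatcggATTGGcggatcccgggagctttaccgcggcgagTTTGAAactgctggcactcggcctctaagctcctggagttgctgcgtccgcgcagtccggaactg
H2-Aa held 1 CCAAT match and H2-Eb1 2, and neither held TTTGAA. Ccnb2 and Cdk1 each held 3 CCAAT and 2 TTTGAA matches. Both were picked after their values and matches were known; of the other promoters searched, H2-DMb2 held 1 CCAAT and 0 TTTGAA, and that of Plk1, a mitotic kinase, 1 of each. Of 32851 promoters of the same length 37.4% held CCAAT, 17.9% TTTGAA and 6.95% both, so the matches describe these windows and are no measure of binding.

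Xist, the RNA that coats the inactive X chromosome, was the bright gene with the largest bound. Xist read 11.12, 10.95, 11.37 and 11.03 in eTreg and 11.07, 10.97, 10.26 and 5.82 in e_iTreg, and Eif2s3y, a translation factor gene on the Y chromosome, 7.62, 8.29, 4.33 and 7.46 in eTreg and 8.12, 7.96, 8.20 and 9.72 in e_iTreg. In e_iTreg replicate 4 Xist was low and Eif2s3y highest, in eTreg replicate 3 Eif2s3y was low and Xist high, and the other 6 arrays had both well above these low values. Kdm5d, a Y-linked demethylase, read 7.25, 7.47, 5.47 and 6.90 in eTreg and 7.27, 7.24, 8.14 and 8.69 in e_iTreg, also lowest in eTreg replicate 3 and highest in e_iTreg replicate 4. The labels do not state the sex of the animals. Without e_iTreg replicate 4 the bound of Xist was 1.72-fold, where with it the bound was 9.91-fold.

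Xist was not the only bright gene that allowed a 2-fold difference. Of 1124 bright genes 14 were not within 2-fold and 65 not within 1.5-fold. The share within 2-fold was 98.8% of bright genes and 99.1% of all genes. Within 1.5-fold the shares were 94.2% and 90.3%. Tlcd1, a membrane lipid protein, read 12.16, 12.27, 12.67 and 9.99 in eTreg and 12.62, 12.02, 12.25 and 11.74 in e_iTreg and was low in eTreg replicate 4 alone, as Cd209a was; without that array its bound was 1.68-fold in place of 2.51-fold. S100a6, a calcium-binding protein, read 11.11, 9.85, 9.50 and 8.96 in eTreg and 10.33, 11.36, 9.71 and 9.27 in e_iTreg, highest in the 2 arrays that led the cell cycle genes, with a bound of 2.31-fold. The histone genes H2ac10 and H2ax had the same 2 arrays highest and bounds of 1.91-fold and 1.92-fold. Fosb, an early response factor, read 11.51, 11.94, 10.76 and 10.90 in eTreg and 12.23, 11.59, 11.86 and 10.95 in e_iTreg, an interval of -0.31 to 1.07. Dusp4, a phosphatase induced by MAP kinase signalling, read 11.33, 11.29, 12.36 and 10.30 in eTreg and 11.49, 11.59, 11.69 and 11.95 in e_iTreg, with eTreg replicates 3 and 4 the highest and the lowest of the 8 arrays, and its bound was 1.97-fold, or 1.39-fold without eTreg replicate 4. Lilrb4a, an inhibitory receptor, and Tuba1b, a tubulin, had bounds of 1.87-fold and 1.84-fold. For each of these genes the 2 groups overlapped.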

How the data were processed

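Gene expression of splenic Treg was measured on 12 Affymetrix arrays, of which 8 are compared here (4 eTreg, 4 e_iTreg). The deposited values are log2 expression values per probe set, made by the authors with RMA in the oligo package, per the submitters' processing notes; the versions are not given in the sources used here. Of 41345 rows, 23521 have 1 gene symbol in GEO's platform annotation, 1814 several and 16010 none; the last 2 kinds entered only an alternative. Of the 23521, 23328 matched a RefSeq gene, and the others kept the platform's name.

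A group-means model was fitted to all 12 arrays with limma 3.58.1 in R 4.3.3, with 1 spread shared by the 3 groups, and p-values were adjusted by Benjamini-Hochberg over the 23521 probe sets (threshold 0.05). Intervals are moderated 95% intervals of e_iTreg minus eTreg and cover each probe set alone. A gene is represented by its probe set with the highest mean over the 8 arrays; of 1082 genes with several probe sets, 0 had intervals on both sides of 0. Precision is limited by the number of arrays. The fit was tested on simulated data.

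Genes were named by rule: the 8 smallest p in each direction at a mean of at least 7, the 15 bright genes with the smallest and the 10 with the largest bound, the 10 largest spreads at a mean of at least 7, up to 4 members of each of 23 gene lists, and a fixed set of markers. Cdk1, Ccnb2 and Plk1 fall outside it and were chosen after their values were seen. Predicted gene models, small RNAs and antigen receptor segments were counted but not named. The compared groups, the lists and the rule were chosen with earlier results of these data known. Alternatives were other scalings, filters, error models and covariates, a replicate block and each array left out.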

Additional observations from a re-analysis of the deposited data

Results flagged for a closer look

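In 21 of 254 groups of 4 arrays tested, a single array stood apart, with a gap to the nearest of the others above Dixon's 95% critical value. Chance alone flags about 1 in 20 groups whose values were not chosen for their spread. Part of the genes tested here were named for a wide bound, a large spread or a small p in the same arrays. The count therefore cannot be set against that rate. The groups tested share arrays, so the flags are not independent of each other.

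Among the e_iTreg arrays, replicate 4 stood apart in sex-linked, MHC class II and other-cell genes. Xist read 5.82 there and at least 10.26 in the other 3 arrays, while Eif2s3y read 9.72 against 8.20 at most. H2-Ab1 (7.32, next 10.87) and H2-DMb2 (6.15, next 9.0) were low in it, as were the means of the IgG receptor list (6.19, next 6.56) and the plasma cell marker list (7.04, next 7.37). e_iTreg replicate 3 was highest for Rac2 (13.34) and COX1 (13.93) and lowest for Ptma (8.48), Ddhd2 (7.07) and the mean of the T cell receptor list (10.66). e_iTreg replicate 1 was lowest for Zfp157 (7.14, next 7.46).

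Among the eTreg arrays, replicate 4 was lowest for Cd209a (8.83, next 10.90), Srrm2 (12.55) and the mean of the early response list (10.39, next 10.70). It was highest for Cldn11 (7.01), F8a (7.20) and Ifi213 (7.97, next 7.63). eTreg replicate 3 was highest for Ctla4 (12.10, next 11.72). eTreg replicate 1 was highest for Atp5b (12.26) and for the mean of the reference and cytoskeletal genes (10.82, next 10.74).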

How the results depend on the processing

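The count of probe sets past the adjusted test was 0 in each alternative run. With an adjusted p of 0.1 as the threshold it was also 0, but that threshold was applied to the main fit only. The lowest adjusted p was 0.0842 without variance moderation, 0.134 with array weights and 0.205 with 1 probe set per gene. The value without moderation lies below 0.1. Keeping only probe sets at log2 6 or above left 13409 within 1.5-fold and 14618 within 2-fold, and keeping those above the median left 10674 and 11626, because fewer probe sets were tested (the shares within 1.5-fold were 90.7% and 90.8%). With all rows 38591 were within 2-fold (93.3%) and 31006 within 1.5-fold (75.0%). Without the 3 arrays in which B cell markers were lowest, 5 arrays were left and 16209 probe sets lay within 1.5-fold (68.9%). Bright genes within 1.3-fold then numbered 501. With bright set at log2 9 or 11 they numbered 1923 or 262, and those past the equivalence test 2715 or 328, of 2823 or 347 bright genes. With each array left out in turn, probe sets within 1.5-fold ranged from 19867 to 21047 and within 2-fold from 23143 to 23284, bright genes within 1.3-fold from 694 to 827 and past the equivalence test from 1046 to 1084, the median half-width from 0.266 to 0.285 and the median SD from 0.149 to 0.167.

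The fit with the replicate block called 0 probe sets, with 974 higher and 627 lower at an unadjusted p below 0.05, 21373 within 1.5-fold and 1094 bright genes past the equivalence test, and it changed none of these counts by over 1.5 times. Within the gene lists the block brought 1 unadjusted call each to the Treg identity genes (lower), the T cell receptor genes (lower), the effector regulators (higher), the IgG receptors (lower) and the homing receptors (higher), took such calls among mitochondrially encoded genes from 2 to 3, and raised the B cell markers within 1.5-fold from 1 to 3. Same-numbered arrays share only a number: their deviations from the group means correlated at 0.160, 0.0669, 0.0784 and 0.238 for numbers 1 to 4, and 1 of the 4 eTreg arrays correlated best with its own number. Dropping the 2 arrays of a single sex signal (eTreg replicate 3 and e_iTreg replicate 4), an alternative added after the data were seen, left 0 calls. So did quantile normalization without e_iTreg replicate 3, also added after the data were seen. Of 2994 values of single genes compared over 25 alternatives, 2915 stayed on their side of the threshold, 40 bounds left 1.5-fold and 39 came within it. Of the differences named for their small p 0 turned sign. Those genes were selected for that difference in the same arrays, so the kept sign is no support for them.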
